A study of Mus musculus with 4 samples.

Results

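Activated ECs were 1982 endothelial cells (ECs) of the mouse left ventricle, of 36364 ECs and 39829 filtered cells in all, that carried transcripts of interleukin 6 (Il6), the metalloproteinase Adamts4 or the urokinase receptor Plaur. The rule worked on unique molecular identifiers (UMIs), each of which stands for 1 captured transcript. A cell had over 200 genes, under 20% mitochondrial UMIs and under 1% hemoglobin UMIs, and at least 3 UMIs over Pecam1, Cdh5, Kdr, Tie1, Egfl7 and Cldn5. It then needed at least 2 UMIs over Il6, Adamts4 and Plaur. Cells with more than 1 UMI of the tip cell genes Apln and Pgf, more than 2 of Ifit1, Ifit2, Ifit3, Ifit3b and Oasl1, any of the vein gene Selp, any of the artery genes Gja4, Gja5, Hey1 and Sema3g, or more than 1 of the pericyte genes Kcnj8, Abcc9, Vtn and Pdgfrb were left out. The other 34382 ECs served as a comparison, together with the 18791 of them that passed every exclusion and held no UMI of Il6, Adamts4 or Plaur (gate-negative ECs). Of 3684 ECs with at least 2 such UMIs, 1140 failed on the artery genes, 470 on the Ifit and Oasl1 genes, 254 on Apln and Pgf, 193 on the pericyte genes and 128 on Selp, and a cell could fail on several.

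Cells labelled by a tdTomato reporter (RFP-positive) were sorted by FACS from the left ventricle and sequenced with the 10x Genomics 3′ assay in 4 libraries. The labels give a chow diet for the mice of 2 libraries, NC 1 and NC 2, a control diet that the study's methods describe as a low-fat rodent diet. Mice of the other 2, HFpEF 1 and HFpEF 2, were given a high-fat diet (HFD) plus L-NAME, an inhibitor of nitric oxide synthases, which models heart failure with preserved ejection fraction. All mice carried the tamoxifen-inducible Cdh5-CreER and the R26-stop-tdTomato reporter, so that the sort follows cells in which the Cdh5 promoter was active, and at least 1 floxed allele, made in C57BL/6N mice, of the HDL receptor gene Scarb1 (SR-B1). By the design each diet was studied with Sfl/+ and Sfl/fl mice, but the labels give a diet and no genotype, so no library was assigned to one, and any genotype difference within a diet cannot be told apart from the spread between libraries. Neither the age nor the number of mice in a library is in the labels, and p-values therefore measure the spread between these libraries, which may be technical. NC 1 held 30387717 UMIs in 7465 cells, NC 2 31517933 in 6924, HFpEF 1 11163876 in 5769 and HFpEF 2 48003732 in 21685. Activated ECs numbered 360, 239, 195 and 1188 in NC 1, NC 2, HFpEF 1 and HFpEF 2, the order in which the values of the 4 libraries are given throughout, and summed to 2100454, 1546092, 540312 and 4101460 UMIs. Levels are given as CPM, the UMIs of a gene in the summed cells of a library as a share of all their UMIs, scaled to the same total in every library. Of all barcodes 166 occurred in more than 1 library, 1 of them among activated ECs, and whether these were shared cells was not tested. Scarb1 stood at 98.6, 47.2, 98.1 and 65.8 CPM in activated ECs and at 107, 44.0, 108 and 49.2 CPM in other ECs. One library of each diet was thus high and one low in both classes, and since the assay reads 3′ ends, outside the deleted exon, no genotype was read from these values.

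Resting capillary ECs of the heart take up and pass on fatty acids and keep leukocytes from binding. Inflammatory signals such as TNF and interleukin 1 act through NF-kB and AP-1 to switch them within hours to an activated state, in which chemokines, adhesion molecules and cytokines are made while inhibitors such as Nfkbia and Tnfaip3 limit the response. Il6 encodes a cytokine that signals through the receptor subunit Il6st to Stat3. Adamts4 encodes a secreted protease that cleaves proteoglycans of the matrix, and Plaur the receptor that holds urokinase at the cell surface. Noct encodes a phosphatase of NADP(H) related to deadenylases, whose messenger RNA is rapidly induced by serum and follows the day.

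In GRCm38, Il6 (ENSMUSG00000025746) lies on the forward strand at chr5:30013114-30019981, Adamts4 (ENSMUSG00000006403) at chr1:171250421-171260637, Plaur (ENSMUSG00000046223) at chr7:24462484-24475968 and Noct (ENSMUSG00000023087) at chr3:51224447-51251644, all on the forward strand as well. The 250 bases before the RefSeq start (GRCm38.p6) of Il6 (chr5:30012864-30013113, forward strand), Plaur (chr7:24462233-24462482, forward), Cxcl2 (chr5:90903649-90903898, forward) and Cxcl10 (chr5:92348890-92349139, reverse) are shown because the rule used the first pair and the second pair had the largest ratios of activated to other ECs among the chemokines. Capitals mark matches to letters known from sites of inducible factors, searched on both strands: GGG, 2 bases of any kind, TT, 1 base of any kind and CC for NF-kB, TGANTCA for AP-1 (N for any base), ACGTCA for the cAMP response element (CRE) and TTGCNNAA for C/EBP.
Il6: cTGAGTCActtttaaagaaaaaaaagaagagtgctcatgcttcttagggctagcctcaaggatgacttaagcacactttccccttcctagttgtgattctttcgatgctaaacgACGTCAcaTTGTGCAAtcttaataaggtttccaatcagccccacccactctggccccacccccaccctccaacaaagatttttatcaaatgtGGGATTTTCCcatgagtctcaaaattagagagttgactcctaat
Plaur: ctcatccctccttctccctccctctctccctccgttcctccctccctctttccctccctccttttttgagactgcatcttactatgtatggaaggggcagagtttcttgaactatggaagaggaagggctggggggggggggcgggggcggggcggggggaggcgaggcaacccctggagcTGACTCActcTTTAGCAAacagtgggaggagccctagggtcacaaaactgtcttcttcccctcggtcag
Cxcl2: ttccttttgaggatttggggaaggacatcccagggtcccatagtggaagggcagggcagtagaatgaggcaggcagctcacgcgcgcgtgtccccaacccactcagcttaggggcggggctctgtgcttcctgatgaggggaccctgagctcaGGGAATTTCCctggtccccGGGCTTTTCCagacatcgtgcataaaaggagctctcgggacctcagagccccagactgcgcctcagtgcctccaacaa
Cxcl10: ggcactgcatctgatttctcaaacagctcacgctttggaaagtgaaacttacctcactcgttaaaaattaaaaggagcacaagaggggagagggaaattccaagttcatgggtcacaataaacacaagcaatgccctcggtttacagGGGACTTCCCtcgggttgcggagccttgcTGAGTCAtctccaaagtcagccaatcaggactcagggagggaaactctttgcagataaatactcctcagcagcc
Counted from the start, with the last base before it as 1, Il6 had an NF-kB match beginning at base 44 (GGGATTTTCC), a CRE match at 136, a C/EBP match at 128 (TTGTGCAA) and an AP-1 match at 249. Plaur had an AP-1 match at 69 and a C/EBP match at 59 (TTTAGCAA), and no NF-kB letters in the window. Cxcl2 had NF-kB matches at 97 (GGGAATTTCC) and 78 (GGGCTTTTCC), and Cxcl10 had one at 103 (GGGACTTCCC) beside an AP-1 match at 74. The C/EBP letters were read on the reverse strand, and no marked matches overlap. The NF-kB letters occurred in 4.00% of 27025 RefSeq promoters and the AP-1 letters in 6.87%, against 6.56% for CRE and 9.55% for C/EBP. Of the 41 genes more than 2-fold higher in activated than in gate-negative ECs in each library, 31 had a promoter in the table, and 6 (19.4%), 5 (16.1%), 3 (9.68%) and 0 of them held the 4 motifs in that order. The letters were chosen with these promoters in view, and a match describes the window without showing that a factor binds.

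The label names Noct beside the 3 rule genes, as a marker found earlier in these data, so its level describes the label and is no independent check. It stood at 93.8, 116, 176 and 178 CPM in activated ECs, 35.5, 37.5, 51.9 and 74.1 CPM in other ECs and 23.95, 24.15, 38.2 and 52.2 CPM in gate-negative ECs, with no overlap between activated ECs and either comparison. Noct was not particular to them, since ECs with at least 2 UMIs of Apln and Pgf, which the rule left out, held 84.8, 111, 201 and 123 CPM. The capillary genes Fabp4 (22482, 28802, 22426 and 24640.5 CPM), Cd36 (4239, 3824, 4229 and 4923 CPM) and Gpihbp1 (1859, 2059, 1499 and 1852 CPM), which bind and import fatty acids or anchor lipoprotein lipase, were among the most abundant genes of activated ECs. Over the capillary identity list of 16 genes, levels summed to 40433, 46728, 37760 and 41704 CPM in activated ECs. In other ECs the sums were higher, at 45275, 51338, 42585 and 44034 CPM. Capillary genes were thus present, and the part of free RNA in their levels was not tested. Genes of other vessels were present as well. Over a list of artery genes other than those the rule excludes, levels summed to 886, 949, 1016 and 918 CPM in activated and 1393, 1411, 1249 and 1319 CPM in other ECs, with Sox17 (354, 338, 353 and 313 CPM) and Dll4 (136, 202, 224 and 166 CPM), which capillary ECs also express, among the highest. The artery gene Fbln5, which the exclusion may bear on, stood at 1.43, 1.94, 5.55 and 12.7 CPM. Over the vein and venous capillary list they summed to 463, 393, 320.2 and 389 CPM against 434, 472, 366 and 453 CPM, with the vein gene Vwf at 62.8, 37.5, 22.2 and 32.4 CPM. The endocardial gene Npr3 stood at 27.1, 5.82, 11.1 and 9.02 CPM. The lymphatic factor Prox1 stood at 0.476, 9.06, 14.8 and 5.85 CPM, and the lymphatic chemokine Ccl21a reached 1.90, 59.5, 211 and 92.2 CPM, with 61.2% of its UMIs in 1 cell of HFpEF 2. Venous capillary ECs, which express Aplnr, were not removed by the rule, and Aplnr stood at 108, 100.3, 81.4 and 87.8 CPM in activated and 46.6, 80.7, 61.0 and 81.7 CPM in other ECs.

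Plaur was the gene that admitted most cells. It was detected in 82.8% of activated ECs, Adamts4 in 49.1%, Il6 in 22.3%, and all 3 in 119 cells (6.004%). These shares describe the rule and support nothing. Il6 was present in 13.6%, 12.1%, 16.4% and 27.9% of activated ECs per library, highest in HFpEF 2. The rule admitted 961 cells (48.5%) with exactly 2 UMIs of the 3 genes, against 3098 ECs that passed every exclusion and stood just outside with 1 UMI, and 264 members had 6 or more, up to 30. In activated ECs Plaur stood at 353, 361, 670.0 and 565 CPM, Adamts4 at 199, 159, 235 and 288 CPM and Il6 at 53.3, 39.5, 99.9 and 187 CPM. All 3 were higher in both HFpEF libraries than in both NC libraries, but the cells of the HFpEF libraries were shallower, and 2 UMIs in a shallow cell ask for a higher level.

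Because the 3 genes were summed, each could be looked at in cells chosen by the other 2. For this, and wherever cells are called thinned below, every cell was reduced to 1000 randomly drawn UMIs and shallower cells were left out. In thinned ECs that passed the exclusions, Il6 stood at 40.8, 152, 61.2 and 189 CPM where Adamts4 and Plaur gave at least 2 UMIs, from 2, 5, 3 and 63 Il6 UMIs, and at 4.86, 6.40, 10.5 and 25.1 CPM where they gave none. Adamts4 averaged 178 ± 79.2 CPM (SD, n = 4 libraries) in cells chosen by Il6 and Plaur, against 25.7 ± 12.9 CPM. Plaur averaged 307 ± 159 CPM in cells chosen by Il6 and Adamts4, against 72.9 ± 32.1 CPM. Each gene was higher in cells chosen by the other 2 in every library, by 2.73-fold to 4.89-fold for Plaur, 4.91-fold to 12.03-fold for Adamts4 and 5.84-fold to 23.7-fold for Il6. These values rest on few UMIs outside HFpEF 2: in the chosen cells of NC 1, NC 2 and HFpEF 1 there were 2, 5 and 3 UMIs of Il6, 4, 3 and 8 of Adamts4, and 2, 3 and 5 of Plaur. The rule and its 3 genes were chosen with earlier results of these data known. Their occurrence together thus describes the rule and is no independent check.

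Levels of other genes were also graded by the number of rule gene UMIs in thinned cells, with no UMI, 1 UMI and 2 or more in 4104, 288 and 51 cells of NC 1, 4197, 209 and 42 of NC 2, 2741, 246 and 58 of HFpEF 1, and 9002, 1214 and 429 of HFpEF 2. Cxcl10 averaged 82.5 ± 37.9, 211 ± 87.8 and 527 ± 221 CPM over the 4 libraries in the 3 groups. Cxcl2 averaged 71.4 ± 40.4, 187 ± 75.8 and 486 ± 183 CPM. Irf1, a transcription factor of the interferon response, averaged 399 ± 61.2, 717 ± 76.7 and 1084 ± 64.1 CPM. In each library and for all 3 genes, cells with 1 UMI of the rule genes, which the rule left out, lay between cells with none and cells with 2 or more. The same order held in every library for Cxcl1, Tnf and Marcksl1. With 2 or more UMIs, Tnf rested on 3, 3 and 5 UMIs in NC 1, NC 2 and HFpEF 1. The order broke in NC 2 for Icam1, at 426, 813 and 619 CPM, and for Neurl3, at 28.1, 90.9 and 47.6 CPM, the last from 2 UMIs. The capillary genes Timp4, an inhibitor of metalloproteinases, and Kdr, the VEGF receptor, went the other way. Timp4 averaged 924 ± 450, 721 ± 303 and 511 ± 171 CPM, and its order, like that of Kdr, was the same in every library. Car4, another capillary gene, followed it in 3 libraries but stood at 478, 340 and 381 CPM in NC 2. Noct averaged 42.8 ± 13.2, 91.4 ± 20.5 and 208 ± 138 CPM, but in NC 1 its level with 2 or more UMIs, 39.2 CPM from 2 UMIs, lay below that with 1 UMI. Hspa1a and Fos showed no such order: Fos averaged 3009 ± 277, 3442 ± 518 and 3041 ± 606 CPM. The 2 UMIs that admit a cell are part of its 1000, and the values have no test because these cells were chosen by the rule.

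**Figure D1:**
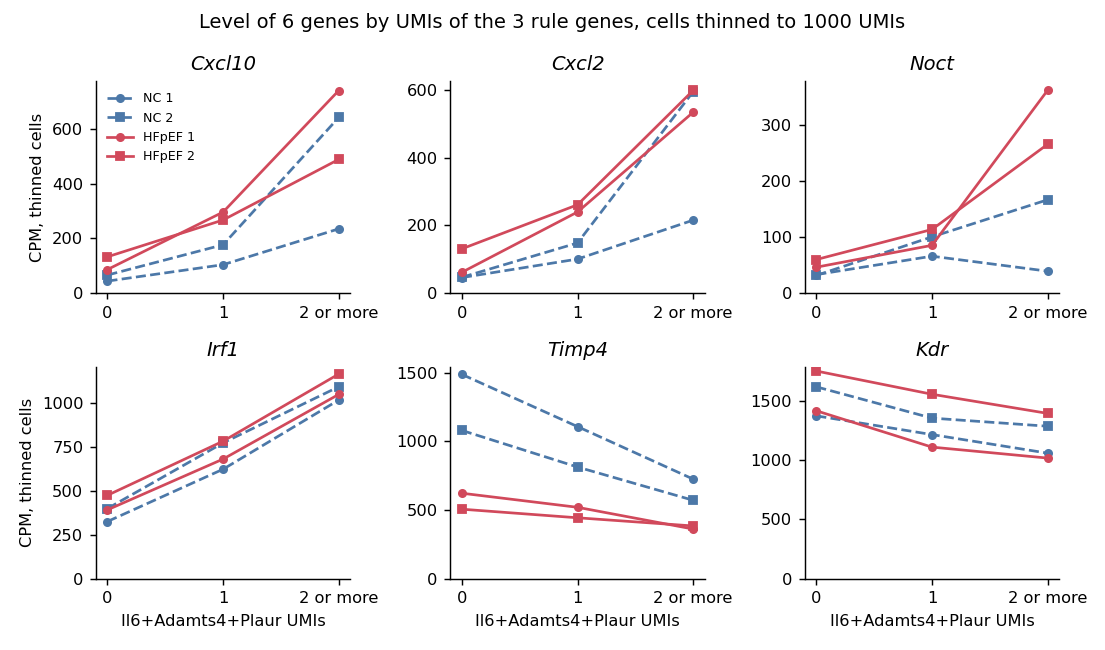
Level in CPM (vertical axes, from 0) of 6 genes in ECs thinned to 1000 UMIs that held 0, 1 or 2 or more UMIs of Il6, Adamts4 and Plaur (horizontal axes), 1 line per library, dashed blue for NC and solid red for HFpEF. Irf1 climbs from 327 to 476 CPM without a UMI to between 1020 and 1168 CPM with 2 or more, while Timp4 declines in all 4 libraries.

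Several inflammatory chemokines were higher in activated than in other ECs. Cxcl2 and Cxcl1, which attract neutrophils, stood at 391, 292, 378 and 467 CPM and 509, 657, 581 and 813 CPM in activated ECs, against 55.1, 71.2, 83.3 and 149 CPM and 213, 270.5, 287 and 395 CPM in other ECs. Cxcl10, the ligand of the T cell receptor Cxcr3, stood at 220.4, 433, 444 and 396 CPM against 60.2, 88.5, 149 and 170.1 CPM, and Cxcl9, which binds the same receptor, at 156, 223, 309 and 233 CPM against 93.2, 103, 164 and 131 CPM. All 4 were higher in activated ECs in each library, and for Cxcl1, Cxcl2 and Cxcl10 the classes did not overlap across libraries. The mean log2 ratio of activated to other ECs within a library was 2.16 ± 0.49 for Cxcl2, 1.73 ± 0.45 for Cxcl10, 1.15 ± 0.14 for Cxcl1 and 0.90 ± 0.16 for Cxcl9 (SD, n = 4). Ccl2, which attracts monocytes, stood at 15.2, 66.6, 35.2 and 84.1 CPM against 8.95, 11.3, 18.1 and 14.1 CPM, but 244 of its 499 UMIs lay in 1 cell of HFpEF 2. Not all chemokines were higher. Cxcl12, the homeostatic chemokine of capillaries and the most abundant of the list, was lower, at 937, 821, 1022 and 1437 CPM against 1644, 1528, 1548 and 2153 CPM, and Ccl5 was close to 0 in activated ECs. Of 9 chemokines with at least 10 CPM, 6 were higher and 3 lower in 4 of 4 libraries, with a median log2 ratio of 0.90. Over all 7975 genes at that level outside the rule, 14.8% were higher and 29.6% lower in every library, with a median log2 ratio of -0.09. The members were selected on values of these cells, so all ratios between activated and other ECs are descriptions without a test, as are the comparisons of lists with all genes.

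Activated ECs were also deeper than other ECs, with medians of 5015.5, 5787, 2514 and 2785.5 UMIs per cell against 3779, 4151, 1796 and 1716, and had 5.55%, 5.05%, 7.77% and 5.52% mitochondrial UMIs against 6.93%, 6.24%, 8.39% and 6.25%. A gate on UMIs finds deep cells more readily. In thinned cells, where all have the same total, the log2 ratio was 2.64 for Cxcl2, 2.42 for Cxcl10, 1.38 for Cxcl1 and 1.30 for Irf1, each larger than with all UMIs. It was smaller for Tnf (1.25) and Odc1 (0.93), and Ccl2 and Tnfaip3 were then higher in 3 of 4 libraries.

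**Figure D2:**
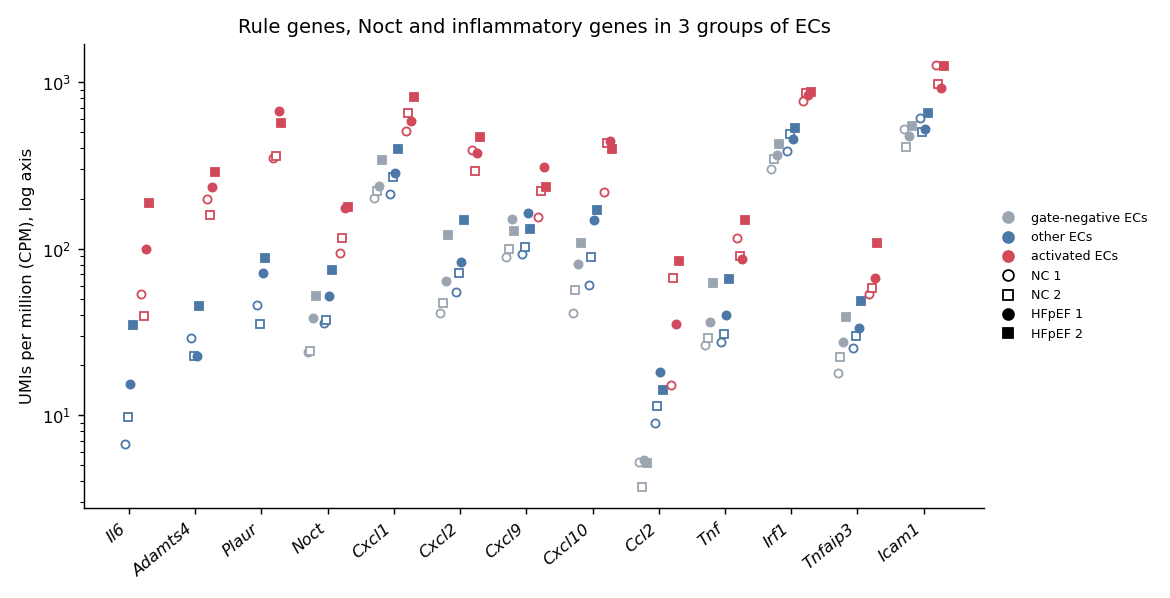
Level in CPM (vertical log axis) of the 3 rule genes, Noct and 9 inflammatory genes in gate-negative ECs (grey, left out for the 3 rule genes, where it is 0), other ECs (blue) and activated ECs (red), 1 point per library, circles for replicate 1, squares for replicate 2, open for NC and filled for HFpEF. Activated ECs lie above the other groups in every library for all genes shown, with Cxcl10 between 220.4 and 444 CPM in activated and between 60.2 and 170.1 CPM in other ECs.

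Genes of the NF-kB pathway were mostly higher in activated ECs. Of 20 tested for level, 15 were higher and 1 lower in every library than in other ECs (median log2 ratio 0.50), and 18 were higher and 1 lower than in gate-negative ECs (median 0.66), where 17.4% of all genes were higher and 27.8% lower in every library (median -0.08). Irf1 stood at 773, 864, 833 and 873 CPM against 387, 492, 457 and 532 CPM. Tnfaip3, a ubiquitin-editing enzyme that restrains NF-kB, stood at 53.3, 58.2, 66.6 and 108 CPM against 25.2, 29.8, 33.2 and 48.7 CPM, and Bcl3, a nuclear cofactor of NF-kB dimers, at 103, 94.4, 113 and 138 CPM against 55.3, 49.4, 51.8 and 77.6 CPM. Neither overlapped between the classes, and their log2 ratios were 1.03 ± 0.08 and 0.94 ± 0.12. Nfkbia, the inhibitor that NF-kB itself induces, was the most abundant of the list, at 1933, 1773, 1853 and 1906 CPM against 1581, 1353, 1240.5 and 1358 CPM. Rela and Nfkb1, which encode the subunits of the common dimer, differed little, with log2 ratios of 0.28 and 0.06, whereas Rel reached 0.84. Tnf, the cytokine that activates this pathway, stood at 116, 90.6, 87.0 and 149 CPM against 27.7, 30.9, 39.7 and 65.9 CPM, and Vegfa at 106, 88.6, 128 and 148 CPM against 61.0, 54.6, 76.7 and 86.6 CPM. Among adhesion molecules for leukocytes, Icam1 stood at 1267, 981, 925 and 1259 CPM against 611, 500.4, 527 and 656 CPM, higher in each library with a log2 ratio of 0.94 ± 0.10. Vcam1 was at 86.6, 82.1, 62.9 and 79.2 CPM against 63.9, 67.0, 60.4 and 71.2 CPM, a small difference, but with 43.1, 46.5, 34.6 and 41.9 CPM in gate-negative ECs its log2 ratio to those was 0.89. Its log2 ratio to other ECs, 0.23, became 1.05 in thinned cells and 0.02 with Il6 left out of the gate. Icam2 and F11r, which resting ECs express, were slightly lower in each library (log2 ratios -0.16 and -0.18).

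Around Il6 itself, the feedback inhibitor Socs3 stood at 998, 895, 898 and 916 CPM against 604, 569, 611 and 686 CPM and the signal transducer Stat3 at 257, 215, 224 and 261 CPM against 189, 163, 174 and 197 CPM, both higher in activated ECs in each library. The receptor subunits were not higher. Il6st had a log2 ratio of -0.22 ± 0.18, Lifr of -0.78 ± 0.19 and Osmr of -0.32 ± 0.33, and relative to gate-negative ECs Il6st was at -0.01. Of 13 genes of Il6 family signalling outside the rule, 8 were higher and 3 lower in every library (median 0.37). Around Adamts4 and Plaur, the related proteases Adamts1 and Adamts9 were higher in each library, Adamts1 at 1274, 1329.8, 1231 and 1416 CPM against 854, 815, 963 and 1058 CPM and Adamts9 at 180.4, 216, 274 and 253 CPM against 135, 108, 153 and 176 CPM. Plat, the tissue plasminogen activator, stood at 82.8, 105, 107 and 131 CPM against 120.2, 109, 109 and 134 CPM, lower in 4 of 4 libraries with overlap across libraries. In this list of 8, 2 genes were higher and 3 lower in every library, with a median log2 ratio of -0.03 to other ECs and 0.45 to gate-negative ECs.

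Noct was listed with genes of messenger RNA decay and signal feedback, of which 9 of 17 were higher and 2 lower in every library. Besides Noct (log2 ratio 1.49 ± 0.22), Zc3h12a, an endonuclease that cleaves Il6 messenger RNA, stood at 131, 93.8, 87.0 and 103 CPM against 62.1, 50.6, 52.6 and 52.3 CPM. Zfp36, which binds AU-rich elements in the same kind of transcripts, stood at 2009, 1849, 1786 and 1794 CPM against 1155, 1162, 1176 and 1272 CPM, and Dusp5, a phosphatase of ERK, at 104, 101, 129.6 and 137 CPM against 59.7, 55.1, 77.3 and 88.9 CPM. Arid5a, which stabilizes Il6 messenger RNA, was outside the lists and stood at 140.0, 129, 135 and 133 CPM against 67.0, 62.3, 68.8 and 82.9 CPM. Zc3h12a, Zfp36, Dusp5 and Arid5a were each higher in every library. Immediate early genes, which respond within minutes to mitogens, stress and tissue dissociation, were higher for 16 of 25 and lower for none in every library, with a median log2 ratio of 0.42. Of the abundant members, Junb (0.42 ± 0.07) and Egr1 (0.32 ± 0.19) were higher in each library. For others the sign was not the same in all libraries: Fos had a log2 ratio of 0.09 ± 0.17, Jun of 0.12 ± 0.18 and Klf2 of -0.04 ± 0.19, each higher in the NC libraries and lower in the HFpEF libraries than in other ECs. Fosl2 stood at 208, 226, 294 and 324 CPM against 117, 114, 148 and 203 CPM, Csrnp1 at 468, 421, 465 and 491 CPM against 272, 238, 263 and 317 CPM and Atf3 at 1599, 1239, 1371 and 1187 CPM against 849, 724, 878 and 829 CPM. Heat shock chaperones were higher for 9 of 11 genes (median 0.43), led by Hsph1 at 118, 57.6, 298 and 325 CPM against 64.2, 30.4, 157 and 212 CPM, although Hspa1a, the most abundant, had a log2 ratio of 0.27 that shrank to 0.07 in thinned cells.

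Genes of resting capillaries were lower in activated ECs, by small amounts. Of 15 outside the rule, 11 were lower and 1 higher in every library than in other ECs, and 14 were lower and 0 higher than in gate-negative ECs, with median log2 ratios of -0.19 and -0.30. Timp4 stood at 1198, 772, 383 and 424 CPM in activated and 1619.7, 1187, 656 and 547 CPM in gate-negative ECs. Car4, a carbonic anhydrase of the capillary surface, stood at 340.4, 343, 235 and 298 CPM against 519, 516, 381 and 402 CPM, and Btnl9 at 242, 273, 311 and 514 CPM against 392, 403, 487 and 668 CPM. The log2 ratios to gate-negative ECs were -0.55 ± 0.18, -0.58 ± 0.11 and -0.57 ± 0.14. Interferon-responsive genes were divided. Iigp1 and Igtp, GTPases induced by interferon gamma, were higher, Iigp1 at 1365, 1765, 2019 and 1722 CPM against 779, 1030.2, 1289 and 1084 CPM and Igtp at 127, 145, 244 and 230.4 CPM against 93.1, 104, 148 and 159 CPM. Of 17 genes of this list 2 were higher and 9 lower than in other ECs (median -0.27), but 4 were higher and 2 lower than in gate-negative ECs (median 0.04). Other ECs hold the cells that the Ifit gate removed, so this list, like those of artery, vein, pericyte and smooth muscle genes, depends on the comparison chosen. The artery list had a median log2 ratio of -0.83 to other ECs and -0.19 to gate-negative ECs, and 0 and 2 of its 8 genes were higher in every library. For the vein and venous capillary list the medians were -0.15 and 0.10.

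**Figure D3:**
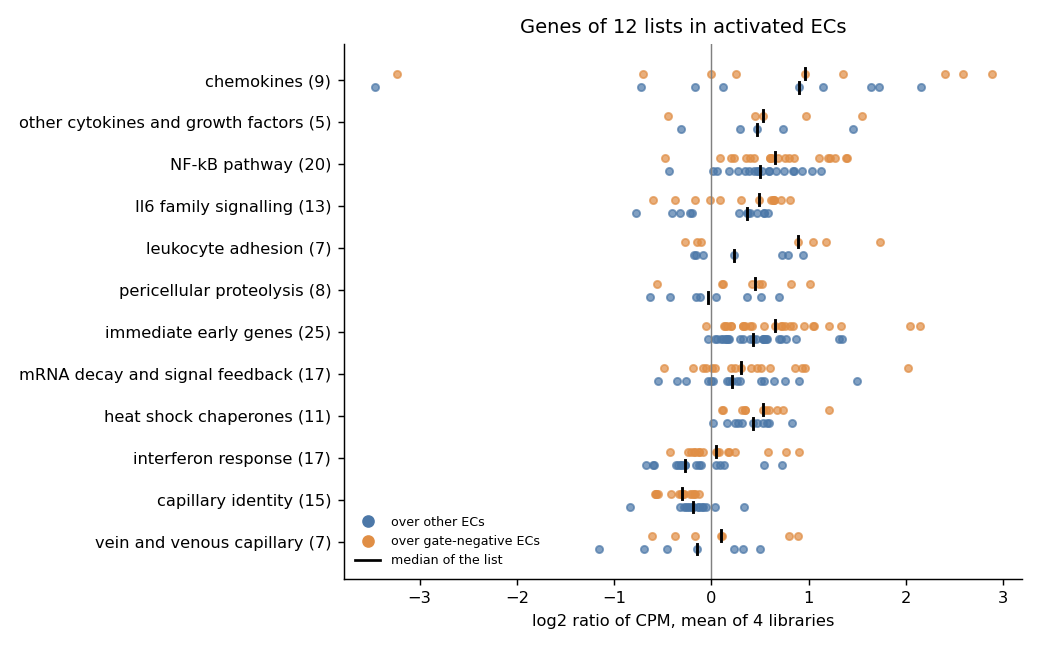
Log2 ratio of CPM in activated ECs (horizontal axis, mean over 4 libraries) for the genes of 12 lists, with the number of genes in parentheses, over other ECs (blue) and over gate-negative ECs (orange), 1 point per gene and a black tick at the median. Chemokines reach from -3.46 (Ccl5) to 2.16 (Cxcl2) over other ECs, NF-kB genes and immediate early genes lie mostly above 0, and capillary identity genes below.

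Outside the rule, 12 of the 7975 genes (0.15%) were more than 2-fold higher than in other ECs in each library, and 58 (0.727%) more than 2-fold lower. The 12 were Cxcl1, Cxcl2, Cxcl10, Tnf, Noct, Neurl3, Marcksl1, Gm12840, Mki67, Slc7a5, Tgif2 and Tubb6. Neurl3, a ubiquitin ligase of inflamed cells, stood at 88.6, 78.3, 113 and 123 CPM against 26.7, 32.4, 42.5 and 48.3 CPM, and Marcksl1, which binds actin, at 286, 317, 307 and 364 CPM against 119, 129.6, 127 and 166 CPM, both without overlap. In ECs with at least 2 UMIs of Apln and Pgf, Neurl3 averaged 97.4 ± 29.0 CPM and Marcksl1 307 ± 80.7 CPM, and in Selp ECs Neurl3 averaged 159.8 ± 49.4 CPM (SD, n = 4), so that their ranges there overlapped those in activated ECs. Among further genes with at least 50 CPM and the largest ratios were Gem (1.20), Nts (1.19), Odc1 (1.13), Igfbp5 (1.07), Emp1 (1.05), Tnfrsf12a (1.04), Irf8 (1.01), Tiparp (0.97), Rnf19b (0.95) and Sting1 (0.94), as mean log2 ratios. Odc1 makes polyamines, Tnfrsf12a is the receptor of the cytokine TWEAK, Irf8 is a transcription factor best known from myeloid cells, and Sting1 relays signals of cytosolic DNA. At the other end, Cox4i2 (-2.70), Mgp (-2.64), Alpl (-2.19) and Fn1 (-1.93) were among the lowest, with Sncg, Cdk19, Mgst1, Smad6 and Pcp4l1 between -1.44 and -1.01. Several of these are genes of mural or artery cells, which the exclusions bear on, and against gate-negative ECs the same ratios were -0.61 for Cox4i2, -0.49 for Mgp, -0.13 for Fn1 and -1.35 for Alpl. Alpl, alkaline phosphatase, stayed more than 2-fold lower in each library. Against gate-negative ECs, 41 genes (0.514%) were more than 2-fold higher and 4 (0.0502%) more than 2-fold lower. Aqp7, the glycerol channel of capillary ECs, stood at 118, 182, 152 and 207 CPM in activated and 265, 357, 297 and 398 CPM in gate-negative ECs, a log2 ratio of -1.01. Mki67, a marker of dividing cells, was at 23.3, 12.9, 5.55 and 13.9 CPM against 6.09, 3.71, 1.87 and 6.35 CPM, low in both classes.

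Other groups of ECs that the rule excluded also held inflammatory transcripts, and these groups were chosen by measured genes as well. Cells with at least 2 UMIs of Apln and Pgf (487), at least 3 of the Ifit and Oasl1 genes (1379), any of Selp (249) or at least 2 of the artery genes (4162) were summed per library. Cxcl10 averaged 373 ± 104 CPM in activated ECs, 368 ± 215 in Ifit ECs, 546 ± 176 in Selp ECs, 239.9 ± 108 in Apln and Pgf ECs and 64.0 ± 30.8 in artery gate ECs (SD, n = 4 libraries). Cxcl2 averaged 382 ± 71.9, 149.8 ± 67.4, 237 ± 181, 379 ± 103 and 67.5 ± 21.4 CPM in the same order. The ranges of Cxcl10 in Ifit, Selp and Apln and Pgf ECs, and those of Cxcl2 in Selp and Apln and Pgf ECs, thus overlapped the ranges in activated ECs. Icam1 averaged 1108 ± 180.3 CPM in activated ECs and 1803 ± 383 CPM in Selp ECs, with no overlap between their libraries. Irf1 averaged 836 ± 45.5 CPM in activated and 921 ± 162 CPM in Selp ECs. Odc1 averaged 208 ± 21.4 CPM in activated, 238 ± 65.3 in Selp and 279 ± 48.2 in Apln and Pgf ECs. Tnf averaged 111 ± 28.8 CPM in activated and 101 ± 26.9 in Apln and Pgf ECs. In the remaining excluded groups the averages of Irf1, Odc1 and Tnf were lower than in activated ECs. Il6, Plaur and Adamts4 are not compared because the rule selected on them.

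Some activated ECs carried transcripts of immune cells. At least 2 UMIs of B cell, T cell, myeloid and platelet markers were present in 12, 8, 3 and 27 activated ECs, or 3.33%, 3.35%, 1.54% and 2.27%, against 1.23%, 2.00%, 0.743% and 0.981% of other ECs. Summed over these markers the level was 163, 101, 37.0 and 619 CPM in activated ECs and 28.7, 70.4, 48.4 and 62.9 CPM in other ECs. One cell of HFpEF 2 held 2175 of the 2540 marker UMIs of that library and one cell of NC 1 held 242 of 342. The most abundant marker was S100a8, with 1129 UMIs, 95.2% of them in 1 cell, while Cd3e of T cells had 1 UMI in all. Leaving these 50 cells out took Cd74, which presents antigen with MHC class II, from 1016 to 179 UMIs, and Tnf from 1043 to 934. For Tnf the loss was mostly in NC 1, from 244 to 155 UMIs, where 1 cell held 79.

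Activated ECs made up 5.30% of ECs in NC 1 (95% Clopper-Pearson interval 4.78 to 5.86), 3.76% in NC 2 (3.31 to 4.26), 3.97% in HFpEF 1 (3.44 to 4.56) and 6.49% in HFpEF 2 (6.13 to 6.85). The intervals cover counting error only. The means of 4.53% ± 1.09 for NC and 5.23% ± 1.78 for HFpEF (SD, n = 2) overlapped, and 2 libraries against 2 cannot give an exact permutation p below 0.33, so no test was made. The difference of 0.698 percentage points became -0.0694 without NC 2 and -0.559 without HFpEF 2. Depth differed between the diets. A minimum of UMIs finds fewer cells in shallow libraries, while exclusions that count UMIs remove fewer. Of ECs with at least 2 UMIs of the rule genes, 251 of 695, 199 of 550, 79 of 330 and 611 of 2109 failed on the artery genes. In thinned ECs the shares were 0.924%, 0.778%, 1.58% and 3.29%, of 5518, 5398, 3670 and 13056 ECs. This left out 223, 182, 635 and 3535 ECs under 1000 UMIs and, because the threshold on endothelial genes was applied to thinned cells as well, further cells that no longer reached it. With ECs taken by all their UMIs, of which 6570, 6168, 4273 and 14778 had at least 1000, an alternative chosen after the data were seen, the shares were 1.13%, 0.762%, 1.498% and 3.43%. By either base HFpEF 1 and HFpEF 2 were each above NC 1 and NC 2, with means of 0.851% ± 0.103 and 2.43% ± 1.21 by the first. With a threshold of 3 UMIs in place of 2, at full depth, the mean was 0.169 points lower in HFpEF.

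**Figure D4:**
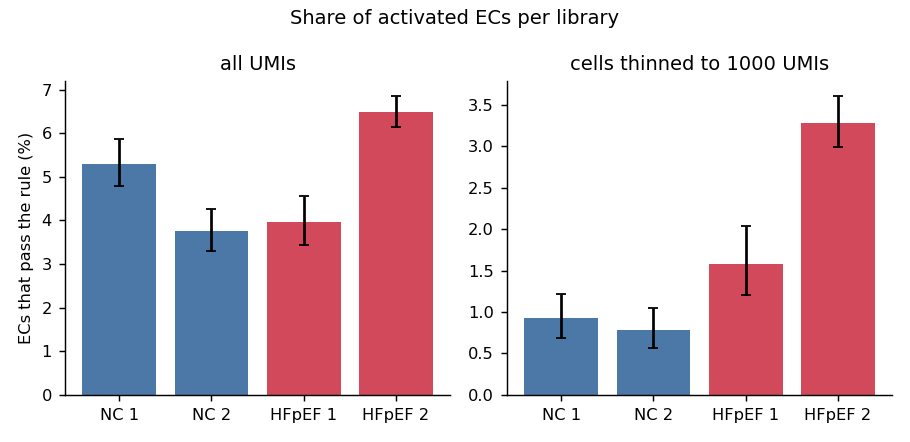
Share of ECs that pass the rule (vertical axes in percent, from 0, with different ranges) in each library, with all UMIs on the left and after thinning to 1000 UMIs on the right, and bars of 95% Clopper-Pearson intervals that cover counting error only. The 2 NC libraries (blue) and the 2 HFpEF libraries (red) overlap on the left (3.76% to 5.30% and 3.97% to 6.49%) and are apart on the right (0.778% to 0.924% and 1.58% to 3.29%).

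In droplet data, free RNA gives UMIs in cells that do not make a transcript, so the rule genes were counted in 56 B cells of the same libraries. These held 0 UMIs of Il6 and 0 of Adamts4, which allows up to 26.0 CPM of each, but 17 of Plaur (147 CPM). Of the 56, 5 (8.93%, median depth 1597 UMIs) reached 2 UMIs of the 3 genes, all through Plaur. In thinned cells 1 of 43 B cells (2.33%) did, beside 2.73% of ECs before the exclusions (median depth of all ECs 2447.5 UMIs). The B cells came unevenly from the libraries: in HFpEF 2 it was 0 of 27 against 4.27% of ECs, in HFpEF 1 0 of 5 against 1.99%, and in NC 2 1 of 11 against 1.00%, with no B cell in NC 1. These numbers are too small to compare the shares. In 347 mural-like cells of the sort Plaur stood at 12.3 CPM, and in 111 fibroblast-like cells at 6.35 CPM. The part of free RNA in single members admitted through Plaur was not tested. Whether B cells express Plaur or took it up as free RNA was not tested.

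HFpEF was then compared with NC within activated ECs, on UMIs summed per library and scaled by TMM, and an adjusted p under 0.05 counted as a call. Of 9223 genes 88 (0.954%) were called, 64 (0.694%) higher and 24 (0.26%) lower in HFpEF, by the quasi-likelihood test of edgeR, adjusted after Benjamini and Hochberg. The 88 and the 64 include Il6 and Plaur, which the rule selected on. Regardless of the test, 21.3% of genes had the pair of HFpEF libraries above the NC pair and 21.2% below it. Heat shock proteins were among the rises: 6 of 11 chaperones of the list were called higher (Hsph1, Hspa1a, Hspa1b, Hspe1, Hspd1 and Bag3) and 0 lower. Hsph1, a nucleotide exchange factor, stood at 116, 57.6, 309.7 and 327 TMM-scaled CPM, a log2 difference of 1.85 ± 0.22 (SE; edgeR adjusted p = 0.00195). Hspa1b, an inducible Hsp70, stood at 2617, 1147, 5265 and 6488 CPM, with 1.64 ± 0.27 (edgeR adjusted p = 0.01), and the mitochondrial chaperonin Hspe1 at 135, 111, 219 and 354 CPM, with 1.28 ± 0.19 (edgeR adjusted p = 0.00515). DESeq2 gave log2 differences of 1.64 for Hspa1b and 1.31 for Hspa1a and called neither. For 10 of the 11, HFpEF 1 and HFpEF 2 were each above NC 1 and NC 2. The list's median log2 difference was 0.86 in activated ECs and 0.77 in other ECs, against -0.01 over all genes in both. None of the 11 was called in the test of the difference between the classes. On simulated data that test recovered 55.5% of genes changed by 1 on the log2 scale, drawn from genes at or above the median UMI sum.

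Of the other rises in activated ECs, Fosl1, an AP-1 subunit, stood at 8.44, 8.42, 34.6 and 31.9 CPM and had a log2 difference of 1.94 ± 0.28 (edgeR adjusted p = 0.00515), against 1.21 in other ECs. Nr4a3, an orphan nuclear receptor, stood at 18.8, 15.5, 51.9 and 47.1 CPM and Arc, an early gene best known from neurons, at 138, 159.9, 314 and 291 CPM, with log2 differences of 1.48 ± 0.22 and 1.01 ± 0.15. With Maff (0.80), 4 of 25 immediate early genes were called higher and 0 lower, while the list's median was -0.10. Ptges3, Tnfrsf10b and Lcn2 complete the 10 rises with the smallest p among genes outside the rule at 20 CPM or more. Ptges3, a cochaperone of Hsp90, had 0.94 ± 0.14 and Tnfrsf10b, a death receptor for TRAIL, 1.45 ± 0.22. Lcn2, which binds siderophores, had 3.36 ± 0.49. For Lcn2, 52.9% of its UMIs lay in 1 cell of HFpEF 2. Noct, at 92.4, 116, 183 and 179 CPM, was called as well (0.80 ± 0.16, edgeR adjusted p = 0.0284), and so were Jak2 (0.92), Spry2 (1.67), Gbp4 (1.17), Igtp (0.84), Edn1 (1.96) and the artery gene Fbln5 (2.74) from the other lists. Without NC 1 the calls of Noct (0.64), Gbp4 (0.66), Igtp (0.73), Fbln5 (2.50) and Maff (0.79) were lost. DESeq2 did not call Noct (0.80), Gbp4 (1.11) or Maff (0.81). At a threshold of 3 UMIs the calls of Noct (0.80) and Maff (0.70) were lost, and without HFpEF 2 those of Jak2, Spry2 and Edn1. Il6 (1.75) and Plaur (0.82) passed the threshold and Adamts4 (0.60, edgeR adjusted p = 0.0939) did not, but the rule sets a minimum number of UMIs of these genes in cells of unequal depth, so nothing is read from them.

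Among the 24 falls in HFpEF, those with the smallest p included Adh1, Timp4 and Thrsp. Adh1, an alcohol dehydrogenase that also oxidizes retinol, stood at 96.2, 80.3, 21.2 and 24.3 CPM and fell in both HFpEF libraries, with -1.90 ± 0.21 (edgeR adjusted p = 0.000887). Timp4 stood at 1181, 772, 398 and 426 CPM, with -1.24 ± 0.18 (edgeR adjusted p = 0.00515), and Thrsp, a regulator of lipid synthesis, at 154, 179, 82.7 and 84.9 CPM, with -0.98 ± 0.16 (edgeR adjusted p = 0.01). The differences in other ECs were -1.30, -1.13 and -0.998. Apoe, the apolipoprotein, had -1.15 ± 0.17, Cpe -1.69 ± 0.28, Ramp2, a subunit of the adrenomedullin receptor, -0.83 ± 0.15, Spry1 -0.86 ± 0.16, Fcgrt -0.88 ± 0.17 and Ctdspl -1.20 ± 0.23, and all were called. H19, an imprinted noncoding RNA, stood at 69.9, 21.4, 0 and 3.19 CPM, but 35.9% of its UMIs were in 1 cell of NC 1. With Aqp1 (-0.77), a water channel, 2 of 15 capillary identity genes were called lower and 0 higher.

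**Figure D5:**
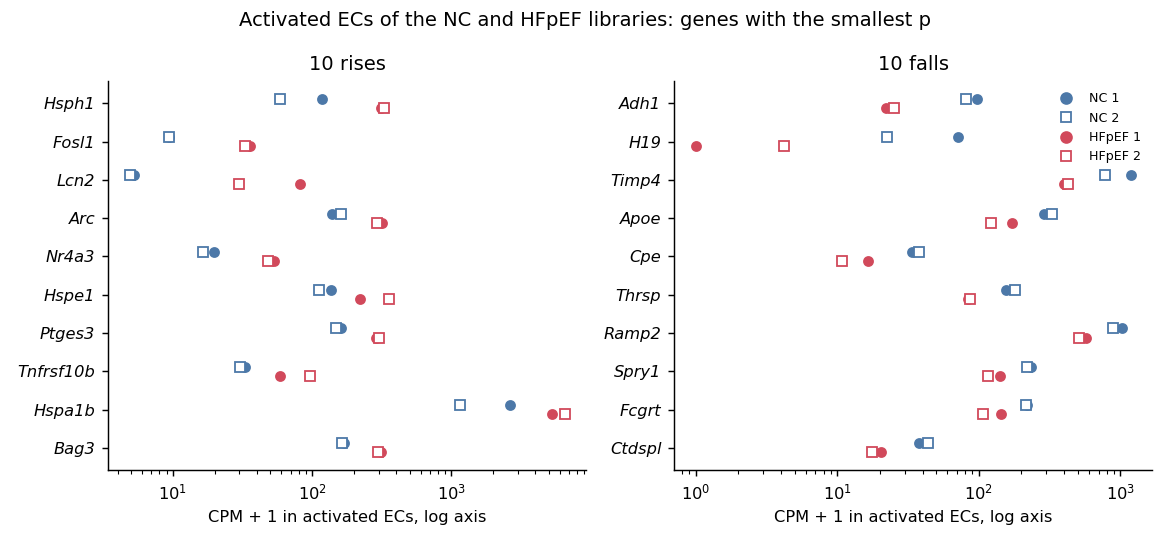
TMM-scaled CPM plus 1 in activated ECs (horizontal log axes) for the 10 rises (left) and 10 falls (right) in HFpEF with the smallest p among genes outside the rule at 20 CPM or more. NC 1 and HFpEF 1 are filled circles and NC 2 and HFpEF 2 open squares, NC in blue and HFpEF in red. The libraries of the diets are apart for all 20 genes, for example 116, 57.6, 309.7 and 327 CPM for Hsph1 and 96.2, 80.3, 21.2 and 24.3 CPM for Adh1.

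Cells of the HFpEF libraries were the shallower ones, so depth and diet cannot be told apart. In thinned cells 890 genes could be tested and 2 were called (Hspa1a and Hspa1b), DESeq2 called 26 of the 88, and of 88 genes 39 stayed called without HFpEF 2 and 61 without NC 1. Of the genes named above, the calls of Tnfrsf10b (0.91), Edn1 (1.23), Jak2 (0.56) and Spry2 (1.09) were lost without HFpEF 2. So were those of Cpe (-1.17), Spry1 (-0.68), Fcgrt (-0.61), Ctdspl (-1.03) and Aqp1 (-0.61). In other ECs edgeR called 3 of 13373 genes (0.0224%; 0.015% higher and 0.00748% lower), Cyp1a1, Ptger4 and S100a9, while 2263 had an unadjusted p under 0.05, against 1106 in activated ECs, and DESeq2 called 255. Calls in one class and not in the other thus do not show a difference, which was tested on its own.

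None of 8 chemokines was called in HFpEF within activated ECs by edgeR (median log2 difference 0.38), nor was any of 21 NF-kB genes (0.24), 7 other cytokines (0.33), 7 adhesion genes (-0.07), 10 proteolysis genes (0.40) or 8 vein genes (-0.13). Over all 9223 genes 0.954% were called, so lists this short can hold no call without differing from all genes. Of 17 interferon genes 2 were called, both higher (median 0.38), as were 1 of 13 genes of Il6 family signalling (0.06), 2 of 17 of RNA decay and signal feedback (0.23), 1 of 10 vasomotor and related genes (-0.05) and 1 of 8 artery genes (0.24). Cxcl10 had a log2 difference of 0.40 ± 0.23 (edgeR adjusted p = 0.519), Cxcl2 of 0.36 ± 0.16 (0.394) and Cxcl1 of 0.31 ± 0.17 (0.491). For Cxcl10 the 2 NC libraries differed from each other, at 217 and 433 CPM, against 462 and 399 CPM in HFpEF, and the value was -0.03 without NC 1 and 0.97 without NC 2, where it passed the threshold (edgeR adjusted p = 0.000184) with NC as a single library, which is assumed to vary like the HFpEF libraries. Irf1 had 0.10 ± 0.14 (0.83), Icam1 0.01 ± 0.17 (0.996) and Scarb1 0.07 ± 0.28 (0.956). In other ECs Cxcl10 stood at 60.5, 87.4, 152 and 169 CPM, with a log2 difference of 1.12 ± 0.18 (edgeR adjusted p = 0.133), and Cxcl2 at 55.4, 70.3, 84.7 and 148 CPM, with 0.90 ± 0.26 (0.201). The diet difference of activated ECs minus that of other ECs was called for 31 of 11935 genes (0.26%), 14 (0.117%) positive and 17 (0.142%) negative. With gate-negative ECs in place of other ECs it was called for 20 genes, 2 positive and 18 negative. Among the 17 negative ones against other ECs were Cxcl10, with -0.76 ± 0.10 (edgeR adjusted p = 2.92e-06), and Cxcl2, with -0.65 ± 0.12 (0.00105). The within-library log2 ratios of activated to other ECs were 1.86, 2.28, 1.57 and 1.21 for Cxcl10, with both HFpEF libraries below the NC libraries, and 2.81, 2.02, 2.17 and 1.64 for Cxcl2, where HFpEF 1 lay above NC 2 and the diets overlapped. The call of Cxcl2 was lost without NC 1 (-0.20) and without HFpEF 2 (-0.28), that of Cxcl10 without HFpEF 2 (-0.53), and both in thinned cells (-0.32 and -0.37). That of Cxcl2 was also lost with DESeq2 (-0.51) and at a threshold of 3 UMIs (-0.48), and that of Cxcl10 against gate-negative ECs (-0.62). With membership from thinned cells and all UMIs counted, both were lost (-0.06 for Cxcl2 and -0.48 for Cxcl10). Among the 14 positive ones were Btnl9 (0.47 ± 0.10, edgeR adjusted p = 0.00482) and Smad6 (0.95 ± 0.18, 0.00235), an inhibitor of BMP signalling. Both of these calls were lost without NC 1 (0.35 and 0.95), without HFpEF 2 (0.30 and 0.69) and in thinned cells (0.41 and 1.68). Against gate-negative ECs both were lost as well (0.23 and 0.60). Of the 31 calls, 7 stayed without NC 1, 6 without HFpEF 2, 9 with DESeq2 and 0 of the 30 that could be tested in thinned cells.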

How the data were processed

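Left-ventricle RFP-positive cells of 4 libraries were profiled with the 10x Genomics 3′ assay. Per the labels and the study's methods, the authors trimmed reads with fastp and made the UMI counts with Cell Ranger 5.0.1 on mm10. Their methods then describe downsampling between samples to an aggregated matrix, and whether the deposited counts were downsampled was not tested. Median depths were 3644, 4035.5, 1699 and 1577 UMIs per cell in NC 1, NC 2, HFpEF 1 and HFpEF 2. Cells failing their filters were still in the files, and filters on genes, mitochondrial and hemoglobin UMIs were reapplied here. The members and the gene lists were chosen with earlier results of these data known. UMIs were summed per library and class. Activated ECs were set beside other and gate-negative ECs by log2 ratios of CPM plus 1, for genes of at least 10 CPM, with no test. HFpEF and NC were compared with edgeR 4.0.16 (R 4.3.3; TMM, quasi-likelihood test, Benjamini-Hochberg adjustment over all genes) in activated ECs, in other ECs, and for the difference between them. DESeq2 1.42.0, other filters, thinning to 1000 UMIs, other thresholds, a replicate block and leaving out each library were alternatives. No doublet caller was run, and leaving out the deepest 5% of cells was an alternative.

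Named genes were the rule genes and Noct; of each list up to 6 members of highest level and any called or more than 2-fold apart in 4 libraries; outside the lists, at 50 CPM or more, the 15 highest and 10 lowest ratios of equal sign in 4 libraries; for tests, the 10 rises and 10 falls of smallest p at 20 CPM or more; and Scarb1, Irf1, Cxcl1, Cxcl2 and Cxcl10. Some genes that fall under this rule are not reported here. On simulated data the test in activated ECs recovered 178 of 200 genes (89%) changed by 1 on the log2 scale, with 7 false among 185 calls over 8980 genes. The test in other ECs recovered 198 (99%) with 21 false calls over 13225 genes, and that of the difference 111 (55.5%) with 8 false calls over 9223 genes. The changed genes were drawn only from genes at or above the median UMI sum, so recovery of sparser genes was not measured. For the difference, both classes were simulated independently, without the library effect that they may share in the data. Gene positions were found for 31107 of 31253 identifiers (99.5%).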

Additional observations from a re-analysis of the deposited data

Results flagged for a closer look

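The diet difference of activated ECs minus that of other ECs passed an adjusted p of 0.05 by edgeR's quasi-likelihood test for 31 genes, of which the 24 that fall under the naming rule are given here as log2 values. It was positive for Lcn2 (3.69), Fbln5 (2.74), Ccl21a (2.04), Edn1 (1.52), Smad6 (0.95), Rgs5 (0.89), Plscr1 (0.49), Btnl9 (0.47), Rbp7 (0.46), Tm4sf1 (0.44) and Txnip (0.34). It was negative for H19 (-3.74), H2-Eb1 (-2.24), H2-Aa (-2.13), Cd74 (-1.93), H2-Ab1 (-1.61), Cxcl10 (-0.76), Cxcl2 (-0.65), Tnf (-0.64), Odc1 (-0.44), Egr1 (-0.32), Klf2 (-0.30), Jun (-0.29) and Fos (-0.29). Against gate-negative ECs the calls of Fbln5 (0.63), Ccl21a (-1.07), Edn1 (1.15), Smad6 (0.60) and Rgs5 (0.45) were lost. So were those of Plscr1 (0.52), Btnl9 (0.23), Rbp7 (0.24) and Tm4sf1 (0.14). Of the negative ones, Cxcl10 (-0.62), Tnf (-0.60), Odc1 (-0.35), Klf2 (-0.31) and Jun (-0.29) lost the call there. Of the 31 calls 7 stayed without NC 1, 6 without HFpEF 2, 9 with DESeq2 and 0 in thinned cells. Single cells carried much of several of these: 52.9% of Lcn2 and 61.2% of Ccl21a UMIs in activated ECs lay in 1 cell of HFpEF 2 each, 35.9% of H19 in 1 cell of NC 1, and 37.0% of H2-Aa, 38.3% of H2-Eb1, 35.4% of Cd74 and 28.9% of H2-Ab1 in 1 cell of NC 1. Without the cells that held immune UMIs the difference turned to 0.82 for H2-Aa, 0.31 for H2-Eb1, 3.09 for Cd74 and 0.73 for H2-Ab1, and without the deepest 5% of cells it turned to -1.17 for Lcn2 and -5.53 for Ccl21a.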

How the results depend on the processing

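The diet difference in the share of ECs ranged from -0.559 to 1.96 percentage points without single libraries and was -0.169 at a threshold of 3 UMIs. Genes more than 2-fold higher in activated ECs in each library (12) numbered 41 against gate-negative ECs, 5 with 10 CPM added, 19 at 3 UMIs, 24 with membership from thinned cells and 13 to 21 without single libraries, and those lower (58) numbered 4, 28, 5 and 53 to 65 against gate-negative ECs, with 10 CPM added, with thinned membership and without single libraries. Diet calls in activated ECs (88) numbered 32 with DESeq2, 295 without a filter, 2 in thinned cells, 135 without the deepest cells, 24 with thinned membership and 113 to 313 without single libraries. Of the 88, 26 were among the calls of DESeq2, and of the 65 that could be tested with thinned membership 13 stayed called. In other ECs (3) they numbered 255 with DESeq2 and 2 to 12 without single libraries, and for the difference (31) 10 with DESeq2, 49 without a filter, 0 in thinned cells (305 at an unadjusted p under 0.05, by edgeR), 20 against gate-negative ECs and 17 to 54 without single libraries. In thinned cells the median difference of all genes shifted to 0.35. Over all genes tested, the deviations between the replicates of NC and those of HFpEF were nearly uncorrelated (0.020 in activated and -0.0064 in other ECs). Such a value cannot exclude that replicate numbers pair the libraries for some genes, which was not tested. A replicate block gave 191 calls in activated ECs and 69 in other ECs, and kept all 88 and all 3 of the main calls. The sign turned for the Aplnr ratio with thinned membership (-0.20), and in the diet test for Scarb1 without NC 2 (-0.31), without HFpEF 1 (-0.15) and at 3 UMIs (-0.051; -0.31 to 0.71 without single libraries), Irf1 with thinned membership (-0.12) and Cxcl10 without NC 1 (-0.027; up to 0.97 without single libraries). For the difference it turned in thinned cells for Tm4sf1 (-0.038), H19 (0.13), H2-Aa (1.63), H2-Eb1 (0.42), H2-Ab1 (0.21), Odc1 (0.75) and Tnf (0.34). With thinned membership it turned for Lcn2 (-0.39), Rgs5 (-0.038), Tm4sf1 (-0.000838), H19 (7.45), H2-Aa (0.91), H2-Eb1 (1.10), H2-Ab1 (0.38) and Odc1 (0.14). Without the deepest cells it turned for Lcn2 (-1.17), Ccl21a (-5.53), H2-Aa (0.43), Cd74 (0.22) and H2-Ab1 (0.31). Without cells with immune UMIs it turned for H2-Aa (0.82), H2-Eb1 (0.31), Cd74 (3.09) and H2-Ab1 (0.73), at 3 UMIs for Cd74 (0.63) and H2-Ab1 (0.35), and against gate-negative ECs for Ccl21a (-1.07). Of all alternative values of named genes, those that turned included, 334 of 391 in the diet test, 140 of 285 for the difference and 229 of 288 ratios kept direction and side of the threshold or stayed within the spread. The causes were not tested. The settings without immune UMIs and with thinned membership were chosen after seeing the data.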

Other observations

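Other cells of the sort carried the rule genes too. In 111 fibroblast-like cells Il6 stood at 413 CPM, Adamts4 at 114 CPM and Plaur at 6.35 CPM, and in 347 mural-like cells at 42.0, 132 and 12.3 CPM. In 48 myeloid cells Il6 stood at 19.9 CPM and Plaur at 353 CPM.

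Among lists not described above, 7 of 9 prostanoid, vasomotor and coagulation genes were higher and 2 lower in activated than in other ECs in every library (median log2 ratio 0.30), with Edn1, which encodes endothelin, at -2.23. Of 5 other cytokines and growth factors 4 were higher and 0 lower (median 0.46). Of 7 tip cell genes 2 were higher and 3 lower (median -0.36), of 3 endocardial genes 0 and 2, of 3 lymphatic genes 0 and 0, of 2 proliferation genes 2 and 0, of 4 cardiomyocyte genes 0 and 1, and of 4 myeloid genes 0 and 0. All 4 pericyte genes, 3 smooth muscle genes and 1 fibroblast gene tested were lower, and the 1 B cell gene was higher. No T cell or platelet gene reached 10 CPM. Other ECs hold the cells that the exclusions removed, so the tip cell, pericyte and smooth muscle lists depend on the comparison chosen. Against gate-negative ECs 2 tip cell genes were higher and 1 lower in every library (median 0.09). Of the prostanoid, vasomotor and coagulation genes 4 were higher and 1 lower there (0.23). Over all genes outside the rule, 14.8% were higher and 29.6% lower than in other ECs in every library.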
